A study of Mus musculus with 10 samples.

Results

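The genes studied here encode the receptors for glutamate, GABA and glycine, the fast and modulatory neurotransmitters of the brain. They are the protein-coding genes of the deposited table whose symbols name a subunit of such a receptor, 52 of 56748 genes in all, picked by symbol, a set proposed with earlier results of these data in view. Of these, 26 encode glutamate receptors (4 AMPA, 5 kainate, 7 NMDA, 2 delta and 8 metabotropic), 21 encode GABA receptors (16 GABA-A, 3 Gabrr and 2 GABA-B) and 5 encode glycine receptor subunits. Poly-A selected RNA-seq was compared between 5 microglia samples, each of 400000 CD11b+ cells sorted from mouse brain, and 5 bulk brain samples made from hemi brains. Every mouse was a young male of the C57BL/6 strain, with no other genotype or treatment given. The series title concerns synaptic proteins that build up in microglia with age, so the question for these genes is how much of their RNA the sorted cells hold. Neither aged animals nor protein were measured in the files used here. CD11b, encoded by Itgam, is carried by microglia and by other myeloid cells, so the sort does not separate microglia from border macrophages.

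AMPA, kainate and NMDA receptors are cation channels opened by glutamate and built from several subunits, whereas metabotropic glutamate receptors signal through G proteins. GABA-A and glycine receptors are chloride channels that mediate fast inhibition, and the GABA-B receptor is a G protein-coupled dimer in which GABBR1 binds GABA and GABBR2 couples to the G protein and carries GABBR1 to the cell surface. Neurons are the main source of most of these transcripts, and astrocytes and oligodendrocyte lineage cells are known to express some of them.

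Total counts per library ran between 25087489 and 28514509 in microglia and between 25845049 and 34709215 in bulk brain, and 3 counts, below which a gene with none may still lie, were worth 0.0821 to 0.125 CPM (counts per 1000000) in 1 library. All 10 microglia markers were higher in the sorted cells, and Itgam averaged 498 CPM in microglia, against 4.65 CPM in bulk brain. The summed level of 10 pan-neuronal markers was 17.5 to 27.4 CPM in microglia and 6310 to 6907 CPM in bulk brain, and none of these 10 was at 0 in microglia. Summed endothelial and pericyte markers stood in microglia at 23.0% of bulk brain, astrocyte markers at 3.49% and oligodendrocyte markers at 2.95%. Oligodendrocyte precursor markers stood at 0.942%, excitatory neuron markers at 0.604% and inhibitory neuron markers at 0.0762%. Gjb1, Lhfpl3, Neurod6, Dlx1, Vip and Npy among these were at 0. The median share per marker was below the summed share in each list. In the same order the medians were 11.7%, 0.438%, 0.664%, 0.325%, 0.111% and 0.0758%. Of the 8 endothelial and pericyte markers, 1 was higher in microglia. Border macrophage markers summed to 518 CPM in microglia, against 11.6 CPM in bulk brain, and markers of monocytes, neutrophils and lymphocytes to 34.2 CPM, against 1.10 CPM in bulk brain. Within bulk brain, replicates 1 and 2 stood apart from replicates 3 to 5 (chi-square per degree of freedom of 110 to 297 across the 2 sets, 48.7 between replicates 1 and 2, and 5.58 to 7.99 among replicates 3 to 5). Whether each sample is a separate animal is not stated in the labels, and the p-values therefore rest on the spread among these libraries alone, part or all of which may be technical.

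A wide contrast lay within the GABA-B pair, where transcripts of Gabbr1 were plentiful in microglia and those of Gabbr2 were nearly missing. The 250 bases before the start of each gene are shown because these partners of 1 receptor stood at such different levels. They are given 5′ to 3′ on the gene's own strand from RefSeq's mouse assembly GRCm38.p6, an older build than the GRCm39 coordinates of the deposited table. Capitals mark GC boxes (CCGCCC or its reverse complement GGGCGG), a motif bound by Sp factors. Gabbr1 lies on the plus strand at chr17:37045716-37045965 and Gabbr2 on the minus strand at chr4:46991715-46991964.
Gabbr1: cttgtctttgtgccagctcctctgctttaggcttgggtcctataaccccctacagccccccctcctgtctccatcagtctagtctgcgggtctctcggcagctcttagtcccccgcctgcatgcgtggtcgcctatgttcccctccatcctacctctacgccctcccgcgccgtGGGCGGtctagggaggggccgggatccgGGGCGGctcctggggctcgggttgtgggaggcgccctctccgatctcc
Gabbr2: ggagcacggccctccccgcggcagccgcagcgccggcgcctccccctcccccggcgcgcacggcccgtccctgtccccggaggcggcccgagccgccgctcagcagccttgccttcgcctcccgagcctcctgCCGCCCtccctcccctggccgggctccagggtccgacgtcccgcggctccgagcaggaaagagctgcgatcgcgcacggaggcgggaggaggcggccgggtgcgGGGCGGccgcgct
Both windows held 2 GC boxes, with 16 CpG pairs before Gabbr1 and 37 before Gabbr2. RefSeq gave 43 promoter windows of 300 bases (250 before and 50 after the start) for 36 of the 52 genes. A GC box on either strand was present in 22 of these 43 windows (51.2%) and in 35.7% of all 32851 windows. That total leaves out the windows of 1 chromosome, which holds none of the receptor genes. The PU.1 core GAGGAAGT, a sequence read by a transcription factor of myeloid cells, was in 0 of the 43 windows and in 3.20% of all. The left part of the RE1 element (TTCAGCACC), bound by the repressor REST that silences neuronal genes, was in 1 window, that of Grm2 (2.33%), and in 0.371% of all. TATAAA was in 5 windows (11.6%) against 13.6% of all, and the cyclic AMP response element TGACGTCA was in 0 against 1.79% of all. These are matches of letters and not sites of binding.

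Across the set, 48 genes had enough counts to be tested, and 45 of these were lower in microglia, 0 were higher and 3 did not pass the threshold (edgeR's quasi-likelihood test, Benjamini-Hochberg adjusted p under 0.05). Over all 18969 genes tested, 43.9% were lower and 37.2% were higher. The median log2 difference, microglia minus bulk brain, was -10.05 over the 48 receptor genes and -0.14 over all genes tested. Of the 48, 40 reached the low-count filter's level (0.356 CPM before scaling) in fewer than 4 of the 5 microglia libraries. These 40 passed the filter through bulk brain, which favours a lower level in microglia. The count of 45 is therefore a description of these genes and not evidence for them as a group. The 8 that reached that level in 4 or 5 microglia libraries were Grik5, Grin3a, Grin3b, Grm3, Gabrb1, Gabrd, Gabbr1 and Glra4. Grin3a and Grin3b reached it in 4. The 4 genes not tested were Grm6, Gabrp and Gabrr1, with 0 counts in microglia and 4, 4 and 32 in bulk brain, and Gabrr3, with 0 counts in every library. With bulk brain replicates 3 to 5 alone, 46 of 48 were lower and 0 higher, beside 47.4% and 37.9% of all genes. In bulk tissue, fewer cells of a type and less RNA per cell cannot be told apart.

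Taken as a sum, the 52 receptor genes held 205 ± 11.4 CPM in microglia, against 6493 ± 1433 CPM in bulk brain (SD, n = 5 each), or 3.16% of the bulk brain level. Gabbr1 made up 93.5% of the microglia sum, and the other 51 genes together held 13.4 ± 2.52 CPM in microglia, against 5791 ± 1414 CPM in bulk brain (0.231%). Among the 46 genes that reached 1 CPM in bulk brain, the median microglia level was 0.0820% of bulk brain, against 73.2% over all 15666 tested genes at that level. For 46 of the 52 genes every microglia library lay below every bulk brain library, an arrangement seen in 40.5% of all genes tested. Gabrr1 was the only 1 of these 46 that was not tested. Counts were present in all 5 microglia libraries for 14 genes, in 3 or 4 for 14, in 2 for 10, in 1 for 5 and in none for 9. Of the 48 tested genes, 5 had 0 counts in all microglia libraries (Grik2, Grik3, Gabrg3, Glra2 and Glra3), as did 4.31% of all genes tested.

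**Figure D1:**
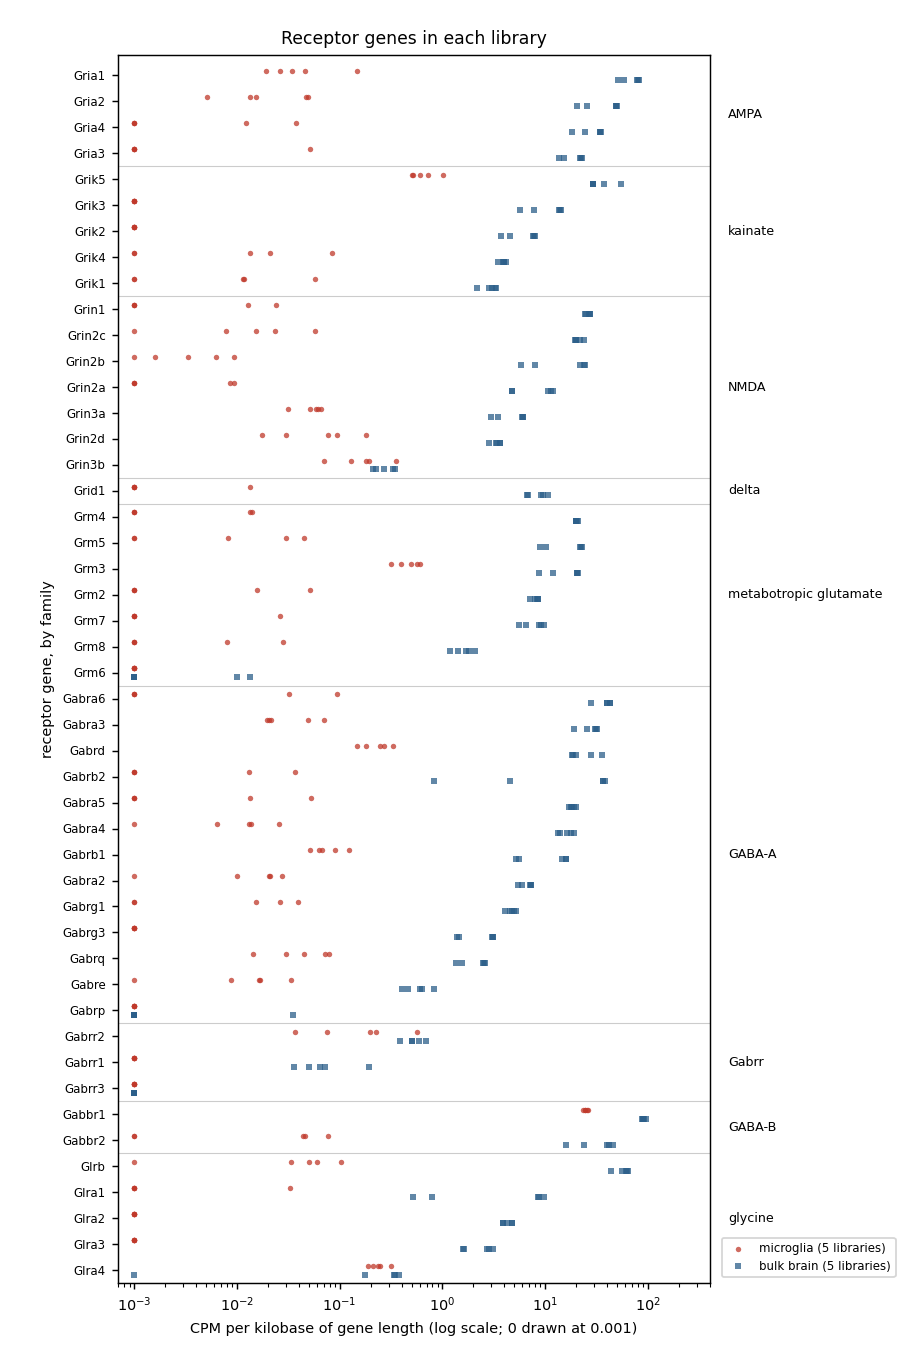
Level of 47 receptor genes in each library, as CPM per kilobase of gene length on a log scale with 0 drawn at 0.001; rows are genes by family, circles the 5 microglia libraries and squares the 5 bulk brain libraries. Gabbr1 averages 24.7 CPM per kilobase in microglia and 90.5 in bulk brain, most other circles lie under 1, and for 41 of the 47 genes drawn the 2 groups do not overlap.

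Placed in order of CPM per kilobase of gene length in bulk brain, Gabbr1 led with 90.5 ± 3.39, followed by Gria1 with 69.9 ± 13.8, and Glrb came lower with 57.2 ± 8.26 (SD, n = 5). Gria1 lay above Glrb in every bulk brain library. In a lower set the means differed by less than their spread, and the order changed between libraries. These were Gabra6 at 38.8 ± 6.20, Gria2 at 38.6 ± 14.4, Grik5 at 36.1 ± 11.3 and Gabbr2 at 33.6 ± 12.9. In microglia the order by the same scale was Gabbr1 at 24.7, Grik5 at 0.675, Grm3 at 0.476, Glra4 at 0.240, Gabrd at 0.236, Gabrr2 at 0.221 and Grin3b at 0.186. Gabbr1 was therefore first in both orders, whereas Gria1 took place 10 in microglia.

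AMPA receptors carry most fast excitatory transmission, and their 4 subunit genes summed to 0.902 ± 0.761 CPM in microglia, against 1395 ± 397 CPM in bulk brain (0.0646%). All 4 were lower in microglia, with log2 differences between -11.41 and -10.29. Gria1 (chr11:56902213-57221070, GRCm39) read 0.278, 0.892, 0.116, 0.159 and 0.208 CPM in microglia replicates 1 to 5, against 357, 310, 468, 483 and 494 CPM in bulk brain. The groups lay far apart, and microglia replicate 2 was the highest of its group. Its log2 difference was -10.29 ± 0.44 (SE, edgeR adjusted p = 1.06e-09). Gria2, whose edited subunit makes the channel tight to calcium, averaged 0.407 ± 0.323 CPM in microglia, against 600 ± 225 CPM in bulk brain. All 13 microglia counts of Gria3 came from replicate 2, and Gria4 had 8 counts from replicates 2 and 4.

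Kainate receptor genes divided into a member with measurable microglia counts and members with next to none. Grik5 (chr7:24709274-24771771), a high-affinity subunit that forms channels together with Grik1, Grik2 or Grik3 subunits, read 3.74, 3.14, 2.70, 2.63 and 5.25 CPM in microglia replicates 1 to 5, against 195, 286, 151, 150 and 152 CPM in bulk brain. Microglia replicate 5 was the highest of its group, and the levels did not overlap those of bulk brain and came to 1.87% of them. The log2 difference was -5.74 ± 0.28 (SE, edgeR adjusted p = 3.02e-09). Grik2 and Grik3, channel-forming partners, had 0 counts in all 5 microglia libraries and averaged 83.3 ± 26.7 and 99.3 ± 36.4 CPM in bulk brain. Against a floor of 3 counts over the microglia group, Grik2 was at least 3498-fold lower and Grik3 at least 4172-fold lower. Grik1 and Grik4 stood at 0.553% and 0.611% of bulk brain, on 14 and 18 microglia counts. In CPM, Grik5 held most of the kainate sum in microglia, which was 3.74 ± 1.09 CPM against 412 ± 29.9 CPM in bulk brain.

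NMDA receptors need the Grin1 subunit in every channel, and Grin1 was nearly undetected in microglia. Grin1 (chr2:25181193-25209199) read 0, 0.233, 0, 0 and 0.125 CPM in microglia replicates 1 to 5, against 238, 267, 243, 265 and 256 CPM in bulk brain. These 9 microglia counts came from 2 libraries, and bulk brain was uniform. Its log2 difference was -11.71 ± 0.44 (SE, edgeR adjusted p = 3.68e-10). The glutamate-binding subunits Grin2a, Grin2b and Grin2c lay at 0.0245% to 0.0995% of bulk brain. Grin2d stood higher, at 0.199, 0.621, 0.116, 0.517 and 1.21 CPM in microglia replicates 1 to 5, against 24.1, 18.7, 24.0, 21.9 and 22.8 CPM in bulk brain, with a log2 difference of -5.39 ± 0.44 (SE, edgeR adjusted p = 2.75e-07). Its span overlaps Kdelr1 on the opposite strand by 5607 bases, and Kdelr1 averaged 58.8 CPM in microglia, against 41.9 CPM in bulk brain. The strand setting of the counting is not given in the sources used here, so reads of the 2 genes cannot be told apart there. Grin3a, which lowers calcium flow through the channel, was present in all 5 microglia libraries at 0.659 ± 0.166 CPM, against 60.3 ± 19.5 CPM in bulk brain (1.09%).

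Grin3b, the other subunit of that kind, did not pass the threshold. It read 0.596, 0.427, 0.231, 0.637 and 1.17 CPM in microglia replicates 1 to 5, against 0.739, 0.895, 1.09, 1.13 and 0.688 CPM in bulk brain. The groups overlapped, with microglia replicate 5 the highest of all 10 libraries. The log2 difference was -0.57 ± 0.40 (SE, edgeR adjusted p = 0.202), and without microglia replicate 5 it was -0.92 (adjusted p = 0.0424). Its span (chr10:79806549-79813024) overlaps Tmem259 on the opposite strand by 2243 bases, and Tmem259 averaged 147 CPM in microglia, against 96.6 CPM in bulk brain. How many of the 76 microglia counts of Grin3b belong to Tmem259 was not tested.

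Delta receptors act as synaptic organisers. Grid1 had 2 microglia counts, both in replicate 1, against 40.6, 39.6, 54.6, 57.0 and 63.1 CPM in bulk brain, a ratio of 3212-fold with a 95% counting interval of 889 to 26527. It was lower in microglia without overlap between groups, with a log2 difference of -11.31 ± 0.42 (SE, edgeR adjusted p = 3.49e-10). That SE is narrower than the counting interval, so it does not give the precision of a ratio resting on 2 counts.

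Of the metabotropic glutamate receptors, Grm3 stood out in microglia. Grm3 (chr5:9535541-9775170), a receptor coupled to inhibitory G proteins and known from astrocytes as well as neurons, read 1.51, 1.86, 1.73, 1.19 and 0.959 CPM in microglia replicates 1 to 5, against 36.2, 26.8, 62.4, 63.6 and 62.2 CPM in bulk brain. The groups did not overlap, and the microglia mean was 2.89% of bulk brain, with a log2 difference of -5.11 ± 0.31 (SE, edgeR adjusted p = 2.2e-08). Grm4 (chr17:27641361-27740377), a presynaptic receptor abundant in cerebellar granule cells, was the opposite case, at 0.0795, 0, 0, 0 and 0.0834 CPM in microglia replicates 1 to 5, against 118, 118, 118, 124 and 122 CPM in bulk brain. It was steady across all bulk brain libraries, and its log2 difference was -11.70 ± 0.33 (SE, edgeR adjusted p = 3.78e-11). Grm5, which couples to phospholipase C, stood at 0.0972% of bulk brain, and Grm2, Grm7 and Grm8, like Grm4 coupled to inhibitory G proteins, at 0.165%, 0.0661% and 0.442%. Grm6, the receptor of retinal bipolar cells, was near 0 in both groups. Apart from Grm3, 22 counts of Grm5 were the most that any of the 8 genes had in microglia.

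The 16 GABA-A genes summed to 3.16 ± 0.987 CPM in microglia, against 1755 ± 400 CPM in bulk brain (0.180%), and the 15 that were tested were all lower in microglia. Gabrd (chr4:155469437-155482569), a subunit of receptors outside the synapse, had counts in all microglia libraries, at 0.715, 0.427, 0.771, 0.517 and 0.959 CPM in replicates 1 to 5, against 80.4, 102, 52.2, 53.1 and 57.4 CPM in bulk brain. It stood at 0.981% of bulk brain without overlap, with a log2 difference of -6.67 ± 0.30 (SE, edgeR adjusted p = 1.37e-09). Gabre, a minor subunit at 2.78 ± 0.780 CPM in bulk brain, was at 0.0716 ± 0.0586 CPM in microglia on 9 counts, and its log2 difference was -5.20 ± 0.50 (SE, edgeR adjusted p = 1.26e-06). Gabrq stood at 2.28% and Gabrb1 at 0.689% of bulk brain, both with counts in all 5 microglia libraries. Gabrg3 had 0 microglia counts and was at least 1211-fold lower against the floor of 3 counts.

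GABA-A genes lie in clusters, and neighbours behaved alike to differing degrees. On chromosome 11, Gabra6 and Gabrb2 had log2 differences of -10.48 and -11.10. On chromosome 7, Gabrg3 and Gabra5 stood at -12.73 and -10.29, where the value of Gabrg3 rests on 0 microglia counts. The chromosome 5 cluster of Gabrg1, Gabra2, Gabra4 and Gabrb1 was wider, between -10.34 and -7.17, and the X cluster of Gabre, Gabra3 and Gabrq wider still, between -9.53 and -5.20. In all, 18 of the 52 genes lay in 6 groups of neighbours within 1000000 bases of each other, and the 52 genes were spread over 14 chromosomes.

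The Gabrr subunits form GABA channels known mainly from the retina, and all 3 genes were near the limit of detection. Gabrr2 (chr4:33062999-33095865) read 0.159, 0.0776, 1.20, 0.477 and 0.417 CPM in microglia replicates 1 to 5, against 0.821, 1.24, 1.06, 1.46 and 1.07 CPM in bulk brain. Microglia replicate 3 reached into the bulk brain range while the other 4 lay below it. The log2 difference was -1.27 ± 0.55 (SE, edgeR adjusted p = 0.0520), and it passed the threshold without microglia replicate 3 (-1.98, adjusted p = 0.00354) and without bulk brain replicate 1 (-1.47, adjusted p = 0.0447).

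The 2 GABA-B genes parted widely in microglia. Gabbr1 (ENSMUSG00000024462, chr17:37356858-37385959, plus strand) read 189, 198, 190, 180 and 204 CPM in microglia replicates 1 to 5, against 689, 676, 699, 703 and 745 CPM in bulk brain. Each group was tight and they did not overlap, with means of 192 ± 9.13 CPM in microglia, against 702 ± 26.4 CPM in bulk brain (SD, n = 5 each). It was lower in microglia, by a log2 difference of -1.87 ± 0.08 (SE, edgeR adjusted p = 8.98e-10) or 3.66-fold, on 24184 microglia counts. No other gene of the deposited table overlaps it. Gabbr2 (chr4:46662305-46991873), described after its values were seen, read 0.517, 0.310, 0, 0 and 0.292 CPM in microglia replicates 1 to 5, against 160, 107, 267, 280 and 308 CPM in bulk brain. That was 28 counts in 3 microglia libraries, with 2 libraries at 0, and a log2 difference of -9.95 ± 0.62 (SE, edgeR adjusted p = 2.48e-08). Microglia thus stood at 27.3% of bulk brain for Gabbr1 and at 0.0996% for its partner.

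**Figure D2:**
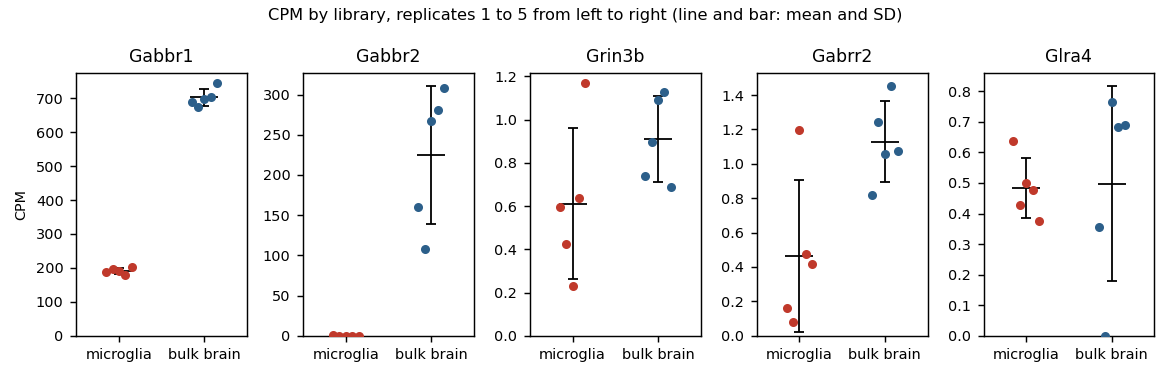
CPM of Gabbr1, Gabbr2 and the 3 tested genes that did not pass the threshold (Grin3b, Gabrr2 and Glra4) in each library on linear axes of different range, with microglia on the left and bulk brain on the right of each panel; points are replicates 1 to 5 and bars show mean and SD. Gabbr1 microglia libraries lie at 180 to 204 CPM and bulk brain at 676 to 745 CPM, Gabbr2 microglia libraries lie at or below 0.517 CPM, and the other 3 genes overlap between groups at levels under 1.5 CPM.

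Glycine receptors are chloride channels of alpha subunits joined by Glrb, the beta subunit that binds the scaffold gephyrin. Glrb (chr3:80750906-80820967) read 0.477, 0.155, 0.231, 0.279 and 0 CPM in microglia replicates 1 to 5, against 258, 203, 290, 295 and 286 CPM in bulk brain. Its groups lay far apart, with a log2 difference of -10.15 ± 0.39 (SE, edgeR adjusted p = 4.64e-10). Glra2 and Glra3 had 0 counts in every microglia library, and against the floor of 3 counts they were at least 570-fold and at least 916-fold lower than their bulk brain means of 13.6 ± 1.46 and 21.8 ± 6.68 CPM. Glra1, the adult brainstem and spinal form, had 2 microglia counts in replicate 4. Glra4 (chrX:135658423-135680890) read 0.636, 0.427, 0.501, 0.477 and 0.375 CPM in microglia replicates 1 to 5, against 0.356, 0, 0.764, 0.683 and 0.688 CPM in bulk brain. Every microglia library lay above bulk brain replicates 1 and 2 and below replicates 3 to 5. The log2 difference was -0.03 ± 0.64 (SE, edgeR adjusted p = 0.963), with a sign that turned under some settings. With bulk brain replicates 3 to 5 alone it was -0.71 (edgeR adjusted p = 0.0827), and the microglia mean was 67.9% of theirs. The whole of its span lies within the long noncoding gene BC065397 on the opposite strand, which averaged 3.83 CPM in microglia, against 2.08 CPM in bulk brain, so its 61 microglia counts cannot be told apart from reads of that gene without the strand setting.

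Ordered by microglia level as a share of bulk brain, the receptor genes fell into a steep series. At or above 5% were Glra4 (97.0%), Grin3b (67.3%), Gabrr2 (41.2%) and Gabbr1 (27.3%), of which all but Gabbr1 averaged under 1.2 CPM in either group. Between 1% and 5% were Grm3, Gabre, Grin2d, Gabrq, Grik5 and Grin3a, 33 genes had counts below 1% of bulk brain, 8 had 0 counts in microglia alone and 1 had 0 in every library. The 10 pan-neuronal markers had a median of 0.143%, with 9 of them between 0.0394% and 0.397% and Elavl4 at 11.0%. Of the 46 receptor genes that reached 1 CPM there, 29 lay at or below that median, 33 at or below 0.397% and 13 above it. Gabbr1 lay above all 10 pan-neuronal markers, and Grm3 and Grik5 above 9 of them.

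**Figure D3:**
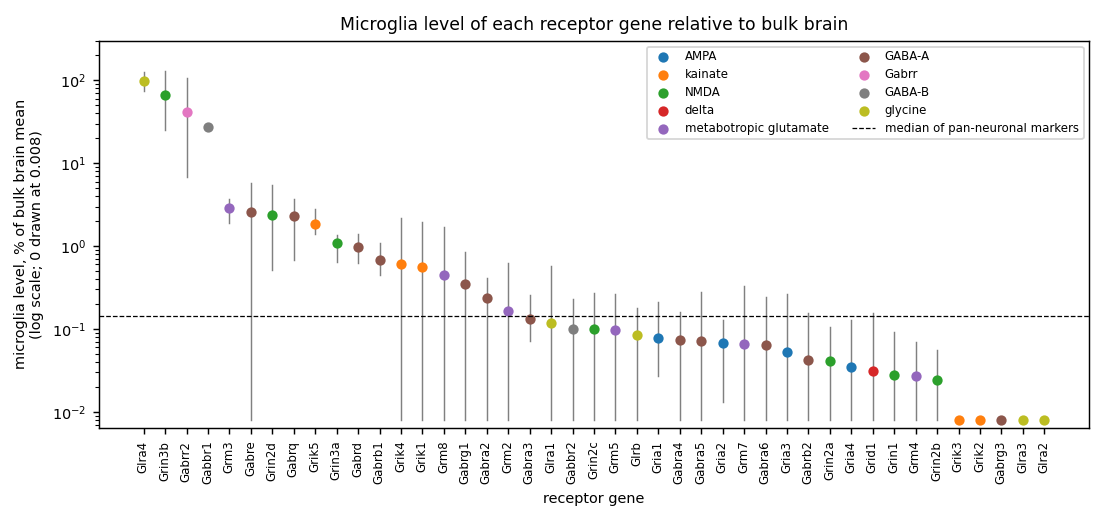
Mean microglia level of 43 receptor genes as a percent of its bulk brain mean, on a log scale with 0 drawn at 0.008; points are coloured by family, grey lines run from the lowest to the highest microglia library, and the dashed line marks the median of 10 pan-neuronal markers at 0.143%. Gabbr1 lies at 27.3% with a narrow range, 3 genes of very low counts lie above it with wide ranges, and 25 of the 41 genes drawn that reach 1 CPM in bulk brain lie at or below the dashed line.

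The low receptor counts in microglia varied with the library. Without Gabbr1 the receptor genes summed to 12.4, 16.7, 11.95, 10.6 and 15.3 CPM in microglia replicates 1 to 5, or 0.183% to 0.289% of bulk brain, and 25, 35, 25, 28 and 31 of the 52 genes had counts. The pan-neuronal markers summed to 19.8, 27.4, 19.0, 17.5 and 24.1 CPM in the same libraries, and the excitatory neuron markers to 13.3, 24.9, 9.56, 7.88 and 21.2 CPM. Replicates 2 and 5 were the highest and replicate 4 the lowest in these 3 sums, and also in the oligodendrocyte markers, at 181, 245, 166, 143 and 209 CPM. The inhibitory neuron markers took another order, at 1.35, 1.67, 0.655, 0.716 and 0.542 CPM, with replicate 5 the lowest. Astrocyte markers were also highest in replicates 2 and 5 but lowest in replicate 3, at 135 CPM. Oligodendrocyte precursor markers were highest in replicates 2 and 1 and lowest in replicate 3, at 1.85 CPM. Endothelial and pericyte markers fell from 106 CPM in replicate 1 to 70.4 CPM in replicate 5. The part of RNA from other cell types in the low receptor values was not tested. Gabbr1 differed by far less between these libraries, from 180 to 204 CPM, though replicates 5 and 2 were again the highest and replicate 4 the lowest.

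Bulk brain was not uniform for these genes. Replicates 1 and 2 averaged 4939 CPM over the 52 genes together, against 7529 CPM for replicates 3 to 5, a ratio of 0.656. Of the 46 genes that reached 1 CPM in bulk brain, 41 had a lower mean in replicates 1 and 2 and 5 a higher one, with a median ratio of 0.685 against 1.03 over all 15666 genes at that level. In 34 of the 46, replicates 1 and 2 both lay below all of replicates 3 to 5, an order seen in 36.0% of all those genes. In 3 of the 46 both lay above, against 39.7% of all.

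The widest gaps were those of Gabrb2, a GABA-A beta subunit, and Glra1, both described after their values were seen. Gabrb2 read 28.7, 5.22, 233, 245 and 232 CPM in bulk brain replicates 1 to 5, and Glra1 read 1.92, 1.24, 21.0, 23.3 and 20.7 CPM. The ratio of replicates 1 and 2 to replicates 3 to 5 was 0.0716 for Gabrb2 and 0.0728 for Glra1, and 34 and 37 of the 15666 genes had ratios at or below these. Gabra6, a neighbour of Gabrb2 on chromosome 11, had a ratio of 0.869. Grin2b, the NMDA subunit of early development and forebrain, stood at 197, 145, 537, 598 and 605 CPM (ratio 0.295). The other direction was taken by Gabrd (ratio 1.69) and Grik5 (1.59), while Grin1 (0.991), Grm4 (0.973) and Gabbr1 (0.953) were nearly level.

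The ratio fell with gene length, with a Spearman correlation of -0.508 across the 46 genes and -0.602 across all 15666, where genes share libraries and are not independent replicates. Summed regional markers gave ratios of 0.940 for cerebellum, 0.665 for brainstem, 1.07 for cortex and hippocampus, 1.53 for striatum and 0.651 for thalamus. The parts of length and region in the split of the receptor genes were not tested. Leaving out bulk brain replicates 1 and 2 gave a median log2 difference of -10.44 over the 48 tested genes.

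**Figure D4:**
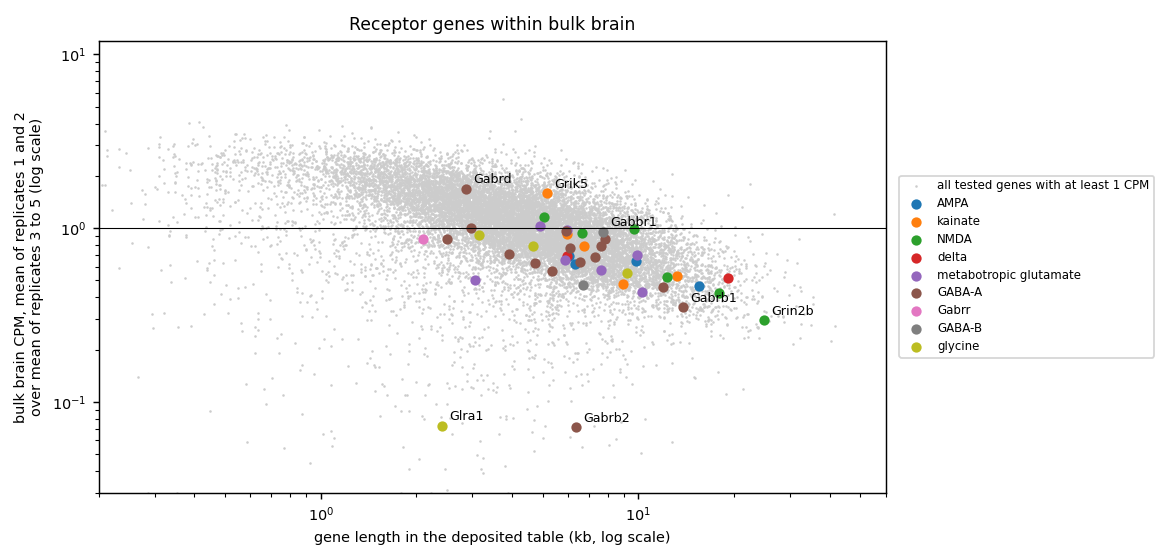
Ratio of mean CPM in bulk brain replicates 1 and 2 to that in replicates 3 to 5 (log scale) against gene length in kilobases (log scale); coloured points are the 46 receptor genes that reach 1 CPM in bulk brain, grey points all 15666 tested genes at that level. Most receptor genes lie below the line at 1 (median 0.685), Gabrb2 and Glra1 lie lowest at 0.0716 and 0.0728, and Gabrd and Grik5 lie highest at 1.69 and 1.59.

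Genes that work beside the receptors were described from 3 lists. Over all genes tested, 43.9% were lower in microglia and 37.2% were higher. Some listed genes, such as Shisa6 and Cnih3, passed the low-count filter through bulk brain, so the counts per list are descriptions only. The auxiliary subunits of ionotropic glutamate receptors, which set the trafficking and gating of the channels, were lower in microglia in 19 of 19 cases, with a median log2 difference of -8.93. The largest falls were those of Shisa6 (-12.18), Syndig1 (-11.87) and Cacng5 (-10.80). These rest on 1, 1 and 2 microglia counts, all in replicate 2. Their counting intervals of 1279 to 281492-fold, 1027 to 226064-fold and 626 to 18684-fold overlapped, so their order is not resolved. The smallest fall was that of Porcn, an acyltransferase of the endoplasmic reticulum found in AMPA receptor complexes. Porcn averaged 9.90 ± 0.883 CPM in microglia, against 54.0 ± 7.84 CPM in bulk brain (log2 difference -2.45 ± 0.13 SE).

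The anchoring and auxiliary genes of GABA and glycine receptors were mixed. Of 18 genes, 13 were lower, 3 were higher and 2, Gabarap and Clptm1, did not pass the threshold, with a median log2 difference of -2.96. Kctd12, an auxiliary subunit that binds GABBR2 and speeds the fading of the GABA-B response, read 4243, 4331, 3797, 4025 and 3966 CPM in microglia replicates 1 to 5, against 127, 95.7, 172, 169 and 168 CPM in bulk brain. The groups lay far apart in the direction opposite to the receptors, with a log2 difference of 4.80 ± 0.18 (SE, edgeR adjusted p = 3.84e-10). Its relative Kctd8 had 0 microglia counts and was at least 596-fold lower against the floor of 3 counts, with 14.2 ± 1.08 CPM in bulk brain. Microglia libraries therefore held Gabbr1 and Kctd12, while Gabbr2 and Kctd8 were near or at 0.

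Plcl2 and Plcl1 encode proteins that bind the GABA-A receptor carrier GABARAP. Plcl2 was higher in microglia and averaged 279 ± 15.1 CPM in microglia, against 78.2 ± 16 CPM in bulk brain, with a log2 difference of 1.84 ± 0.13 (SE, edgeR adjusted p = 9.4e-08). Plcl1 averaged 66.9 ± 3.73 CPM in microglia, against 47.7 ± 12.9 CPM in bulk brain (0.49 ± 0.18 SE, edgeR adjusted p = 0.0274), a call that was lost in 12 of 20 alternatives, among them leaving out microglia replicate 1 or any 1 bulk brain library. With bulk brain replicates 3 to 5 alone its log2 difference was 0.10 (adjusted p = 0.115). The largest falls after Kctd8 were those of Insyn1 (-8.90) and Iqsec3 (-8.24), which belong to inhibitory postsynapses. Gphn, the scaffold gephyrin that holds glycine and GABA-A receptors and also serves molybdenum cofactor synthesis, averaged 17.0 ± 2.43 CPM in microglia, against 73.0 ± 7.62 CPM in bulk brain, with a log2 difference of -2.10 ± 0.13 (SE).

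Among 23 genes for making, releasing and taking up the 3 transmitters, 20 were lower in microglia, 2 were higher and 1 did not pass the threshold, with a median log2 difference of -7.59. Glul, the enzyme that turns glutamate into glutamine, read 2303, 2094, 2016, 2053 and 1810 CPM in microglia replicates 1 to 5, against 1470, 1384, 1251, 1199 and 1177 CPM in bulk brain. The groups did not overlap, and its log2 difference was 0.66 ± 0.10 (SE, edgeR adjusted p = 6.58e-05). Shmt2, which makes glycine from serine in mitochondria, averaged 30.1 ± 1.83 CPM in microglia, against 21.3 ± 3.27 CPM in bulk brain (0.50 ± 0.12 SE, edgeR adjusted p = 0.00258). The largest falls were those of Slc6a5, the neuronal glycine transporter (-11.75), Gad2, which makes GABA (-10.88), and Slc17a7, a vesicular glutamate transporter (-10.66). The value of Slc6a5 rests on 2 microglia counts, both in replicate 2, with a counting interval of 1206 to 35968-fold.

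**Figure D5:**
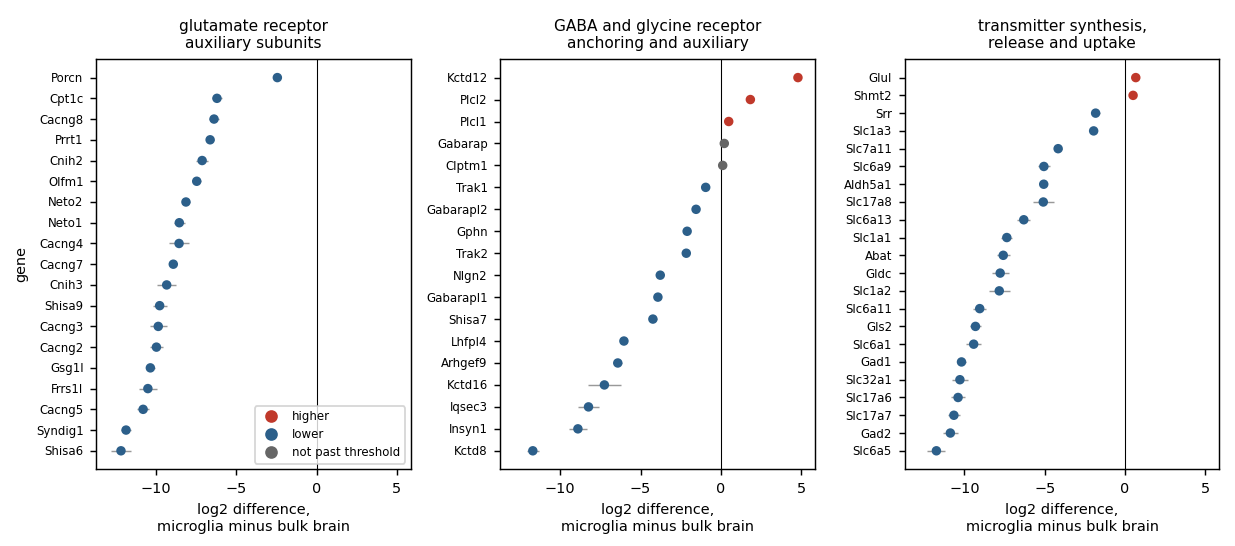
Log2 difference, microglia minus bulk brain, of genes of 3 lists (auxiliary subunits, anchoring genes, transmitter handling), with SE bars; red points were higher, blue points lower and grey points not past the threshold (edgeR adjusted p under 0.05). All 19 auxiliary subunit genes lie to the left of 0, and Kctd12 lies farthest to the right at 4.80.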

How the data were processed

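RNA-seq was measured in 5 microglia and 5 bulk brain samples. The authors deposited raw counts per gene, with symbols, GRCm39 coordinates and gene lengths per the file headers. Per the submitters' processing notes, CASAVA, HISAT2 2.2.1 and featureCounts 2.0 were used with GRCm39. Not given in the sources used here are the strand setting, the annotation and the rule for reads with several matches. The labels' protocols give poly-T selection and random hexamer priming, and the batch label is 1 throughout.

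Counts of all genes kept by filterByExpr (18969) were scaled by TMM and tested with edgeR 4.0.16's quasi-likelihood test (R 4.3.3), fitting group alone over all 10 libraries, with Benjamini-Hochberg adjustment over all genes. CPM are counts over the TMM-scaled total of the genes tested, an SE is the log2 difference divided by the square root of the F statistic, and a floor is 3 counts over the group. For genes with few microglia counts such an SE can be smaller than counting error alone. Floors and the 95% Poisson intervals cover counting error only, since reads carry no molecular identifiers. Each library counted as 1 sample. Pairs of microglia libraries had a chi-square of 7.40 or more per degree of freedom, above counting noise. Such spread cannot tell separate animals from separate preparations of the same RNA. The receptor genes and gene lists were chosen with earlier results of these data known. Full values were given, by rule, for the highest gene per family and group per length, every gene not past the threshold, and the 5 largest and 5 smallest shares of bulk brain (21 genes, some not reported here). Of the other lists, genes that were higher and the 3 largest falls per list were named by rule. Genes outside these rules were named with their values in view. The fit was first tested on simulated data. Promoters came from RefSeq GRCm38.p6. Alternatives were other scalings and filters, DESeq2 1.42.0, limma-voom (limma 3.58.1), a 2-fold test, a replicate block and leaving out libraries.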

Additional observations from a re-analysis of the deposited data

Results flagged for a closer look

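In 4 of 51 groups of 5 libraries, 1 library lay far from the others of its group by Dixon's test. Chance gives about 1 in 20 for independent values from a normal distribution. The groups are not independent, since the AMPA sum holds Gria1, so that rate is no measure for the count of 4. Gria1 in microglia replicate 2 stood at 0.892 CPM, the next library being at 0.278 CPM. Grid1 in microglia replicate 1 stood at 0.0795 CPM, a level of 2 counts, with the other libraries at 0, an arrangement that is always flagged. The summed AMPA genes in microglia replicate 2 stood at 2.21 CPM, the next library being at 0.887 CPM. The summed kainate genes in bulk brain replicate 1 stood at 359 CPM, the next library being at 417 CPM. The microglia values rest on few counts.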

How the results depend on the processing

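Under 20 alternatives, 45 to 47 receptor genes were lower in microglia and 0 were higher. The 47 were of 51 tested without the low-count filter, and 48 were tested in every other setting. Over the same alternatives, 6364 to 12197 of all genes were lower and 4450 to 7621 were higher. Leaving out each library in turn gave 45 to 46 lower receptor genes and 0 higher ones, 8575 to 9033 lower and 6677 to 7127 higher genes of all tested, and 52 to 53 lower and 4 to 5 higher genes of the 3 lists. Against a 2-fold difference, 4450 of all genes and 2 genes of the 3 lists were higher, and without the low-count filter 3 genes of the lists were. Deviations of microglia and bulk brain samples of the same replicate number had correlations of -0.021 to 0.010. Such values cannot tell whether 2 samples came from the same animal, which the labels do not state. With the replicate number as a block 46 receptor genes were lower, 8037 of all genes were lower and 6858 higher. Glra4 turned positive under upper-quartile scaling (0.041), the replicate block (0.30) and limma-voom (0.78), and ran from -0.50 to 0.056 on leaving out a library. Gabrr2 passed the threshold under the block (-1.66, adjusted p = 0.0410), DESeq2 and 7 other settings. Plcl1 did not pass in 12 alternatives, among them median-of-ratios scaling (0.31, adjusted p = 0.158), library size alone, DESeq2, no low-count filter and the 2-fold test, with differences of 0.10 to 0.56 over all 20. Without microglia replicate 1 its adjusted p was 0.0527, and without 1 bulk brain library it was 0.0789 to 0.194. Shmt2 did not pass without the filter (0.32, adjusted p = 0.0636), and Shmt2 and Glul not against a 2-fold difference. With bulk brain replicates 3 to 5 alone Gabarap was higher (0.56, adjusted p = 2.5e-07). The cause of these changes was not tested. Scaling moved the median of all genes to -0.33 at most from -0.14. Gabbr1 stayed between -2.06 and -1.80. Depth limits the genes under 1 CPM.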
